A study of Homo sapiens with 6 samples.

Results

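The TREM and CD300 receptors are a set of 8 genes, 2 TREM genes (TREM1, TREM2) and 6 CD300 genes (CD300A, CD300C, CD300E, CD300LB, CD300LD, CD300LF), taken by symbol from the 58381 genes of the count table. Their transcripts were measured by RNA sequencing in MOLM-13 cells exposed to 5 µM DB2115 for 20 h and in MOLM-13 cells exposed to vehicle (VEH, 0.001% DMSO) for the same time. MOLM-13, the 1 line used, is a human cell line from acute myeloid leukaemia with the MLL-AF9 fusion and a FLT3 internal tandem duplication, which treated and vehicle cells share. DB2115 is given only by this code name, and the series title names the transcription factor PU.1. Of the 3 deposited columns per group, 1 (V) matched A plus B exactly in 86.3% (DB2115) and 85.6% (VEH) of genes with counts, and to within 3 counts for the 8 members. It was left out, so n = 2 libraries (A and B) per group throughout. No label states that they came from separate cultures, and the p-values reflect a spread among libraries that may be technical alone.

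These receptors carry a single immunoglobulin-like domain and sit on the surface of myeloid cells. The activating members have short tails and a charged residue in the membrane, and they signal through adaptor proteins. Some of these adaptors carry an ITAM, a tyrosine motif that Src-family kinases phosphorylate and the kinase SYK then binds. The inhibitory members carry ITIM motifs in their own tails, to which the phosphatases SHP-1 and SHP-2 bind. TREM1 amplifies inflammatory responses of neutrophils and monocytes, TREM2 senses lipids on macrophages, microglia and osteoclasts, and the CD300 receptors bind phospholipids and sphingolipids exposed on cells.

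The genes lie in clusters on chromosomes 6 and 17, and their promoter windows, 250 bases before to 50 bases after the RefSeq start (build GRCh38.p14), are shown for the 4 members that the RefSeq promoter table holds. All 4 of these genes rose with DB2115. They are printed because PU.1 and other ETS factors bind sites with a GGAA core. Capitals mark matches on either strand to GAGGAA or AGGAAGT, letters around such a core, or to TGANTCA, the AP-1 letters. The windows are TREM1 at chr6:41286633-41286932 (minus strand), TREM2 at chr6:41163067-41163366 (minus strand), the first of 2 listed for CD300A at chr17:74466123-74466422 (plus strand) and CD300LB at chr17:74531426-74531725 (minus strand).
TREM1: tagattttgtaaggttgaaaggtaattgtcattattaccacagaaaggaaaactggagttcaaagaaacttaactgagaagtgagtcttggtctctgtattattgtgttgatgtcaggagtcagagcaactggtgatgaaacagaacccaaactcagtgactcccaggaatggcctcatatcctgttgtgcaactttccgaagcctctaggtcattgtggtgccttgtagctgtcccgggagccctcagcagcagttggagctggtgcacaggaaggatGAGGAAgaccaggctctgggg
TREM2: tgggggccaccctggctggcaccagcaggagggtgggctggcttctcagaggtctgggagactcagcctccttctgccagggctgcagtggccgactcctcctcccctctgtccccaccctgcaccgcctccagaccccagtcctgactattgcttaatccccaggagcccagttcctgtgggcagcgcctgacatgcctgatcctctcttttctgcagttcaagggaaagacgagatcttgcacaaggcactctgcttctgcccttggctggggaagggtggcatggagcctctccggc
CD300A: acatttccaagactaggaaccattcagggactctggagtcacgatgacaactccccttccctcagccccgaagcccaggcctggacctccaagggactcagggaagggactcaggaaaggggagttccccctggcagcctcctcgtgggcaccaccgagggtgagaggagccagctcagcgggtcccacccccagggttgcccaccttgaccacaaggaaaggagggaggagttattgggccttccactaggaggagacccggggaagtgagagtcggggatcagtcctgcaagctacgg
CD300LB: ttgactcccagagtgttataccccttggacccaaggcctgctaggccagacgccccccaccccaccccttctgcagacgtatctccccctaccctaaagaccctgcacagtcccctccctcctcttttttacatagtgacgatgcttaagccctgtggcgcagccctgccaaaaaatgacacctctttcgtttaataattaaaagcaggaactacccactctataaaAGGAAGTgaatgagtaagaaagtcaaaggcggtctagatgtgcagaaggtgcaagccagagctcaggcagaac
TREM1 had 1 match, GAGGAA at position 30 after the start, and CD300LB had 1, AGGAAGT at position -23. The windows of TREM2 and CD300A held none of the 3 marked strings, although the bare letters GGAA occur in both. Over all 35116 promoter windows of the table, 27.9% held GAGGAA, 8.24% AGGAAGT and 7.71% TGANTCA, and 36.9% at least 1 of the 3. The matches describe these letters and windows only.

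TREM1 and TREM2 rose strongly with DB2115, CD300LB, CD300A and CD300C rose less, and CD300LF fell. CD300E and CD300LD had no count in any library. Levels are read counts scaled to library size (CPM) after TMM normalisation, and a gene was called at a Benjamini-Hochberg adjusted p under 0.05 over all 17219 genes tested with edgeR's quasi-likelihood test. Of the 8 members 6 passed the filter on low counts, 5 of these were called higher and 1 lower. Over all genes tested, 32.7% were called higher, 31.3% lower and 64.1% in either direction, so that a call by itself is common here. TREM1 and TREM2 ranked 480 and 644 from the top by fold change, CD300LB 1515, CD300C 3823, CD300A 3986 and CD300LF 13440.

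**Figure D1:**
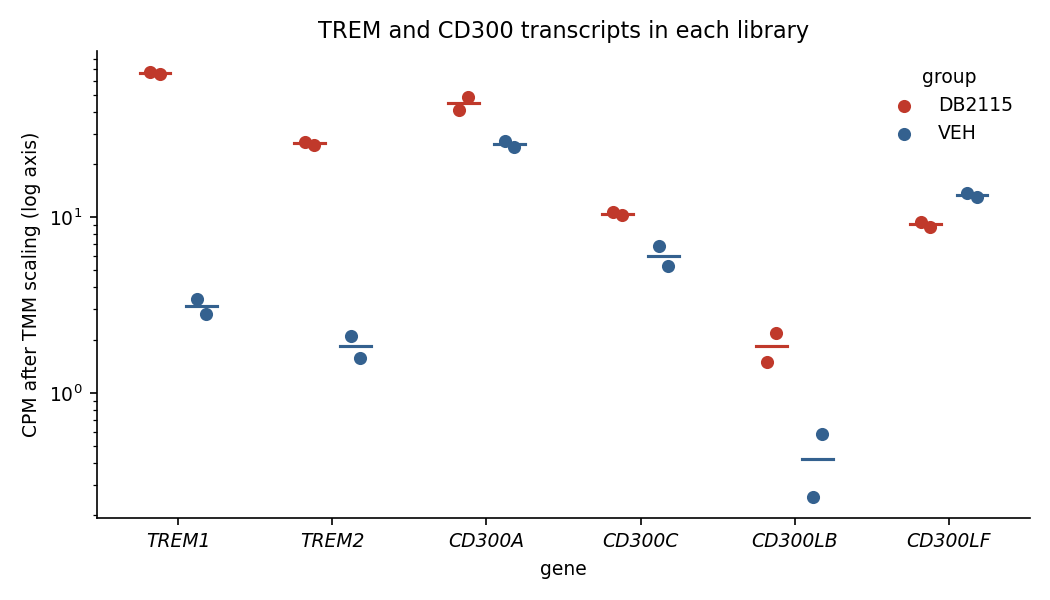
Level of the 6 detected member genes in each library, as CPM after TMM scaling on a log axis, with DB2115 in red left of VEH in blue. Points are libraries A and B and lines are group means. TREM1 stands at 67.3 and 65.9 CPM with DB2115 against 3.44 and 2.81 CPM in VEH, and CD300LF is the member whose DB2115 points lie below its VEH points.

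TREM1, the activating receptor that pairs with the adaptor DAP12, had 67.3 and 65.9 CPM in the DB2115 libraries, against 3.44 and 2.81 CPM in the VEH libraries. Both treated libraries lay far above both vehicle libraries and close to each other. The mean was 66.6 ± 1.01 CPM with DB2115 and 3.13 ± 0.449 CPM in VEH (SD, n = 2 each), a log2 fold change of 4.42 (SE 0.10, edgeR adjusted p = 4.64e-12), or 21.4-fold. TREM1 lies on the minus strand of chromosome 6, 41267926 to 41286719 (GENCODE 29, GRCh38). An unprocessed pseudogene on the same strand, ENSG00000218809, lies inside the TREM1 body and shares no exonic base with it. It had 46 and 40 counts with DB2115 and no count in VEH, at least 26.6-fold higher when 3 counts over the VEH group are taken as the floor, so reads there appeared together with those of TREM1.

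TREM2, the lipid receptor that also signals through DAP12, had 27.0 and 25.8 CPM with DB2115, against 2.11 and 1.57 CPM in VEH. The groups were again well apart, and the vehicle level rested on 74 and 65 counts. Its log2 fold change was 3.86 (SE 0.13, edgeR adjusted p = 1.03e-10), 14.5-fold, with means of 26.4 ± 0.853 CPM with DB2115 and 1.84 ± 0.376 CPM in VEH (SD, n = 2 each). TREM2 occupies 41158506 to 41163186 on the minus strand of chromosome 6. Per kilobase of exon, TREM1 stood at 0.630 and 0.645 times the TREM2 level in the DB2115 libraries, against 0.414 and 0.451 times in the VEH libraries. The ratio was higher in both treated libraries, by 0.56 on the log2 scale, with an exact two-sided permutation p = 0.333, the smallest that 2 libraries against 2 can give.

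TREM2 is a known marker of osteoclasts and microglia, and markers of these cells were read beside it. All 3 osteoclast markers, CTSK, ACP5 and OSCAR, were called higher, where 32.7% of all genes tested were called higher and 31.3% lower. The 3 markers summed to 24.1 and 22.8 CPM with DB2115 against 5.83 and 5.52 CPM in VEH. Of the 3 microglia markers only TMEM119 passed the filter. It had 3.91 and 4.27 CPM with DB2115 and no count in VEH, at least 104-fold higher by the same floor, whereas P2RY12 had no count in any library and SALL1 had 1 count in all, in VEH. All 8 markers of the myeloid line were detected, 5 called higher, 2 lower and SPI1, which encodes PU.1, not called. CD14, the monocyte lipopolysaccharide co-receptor, rose 36.4-fold on 4 and 7 VEH counts, CSF1R, the receptor of macrophage colony-stimulating factor, 13.6-fold, ITGAM, an integrin of myeloid cells, 7.92-fold, and MPO, the granule peroxidase, 5.52-fold, whereas PTPRC (0.166-fold) and FLT3 (0.322-fold) fell. Their summed level was 818 and 765 CPM with DB2115 and 925 and 900 CPM in VEH, a sum in which these opposite changes offset each other. The part of other cell states in the TREM2 rise was not tested, and in bulk RNA more cells of a type and more RNA per cell cannot be told apart.

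CD300A, the inhibitory receptor for phosphatidylserine and phosphatidylethanolamine, had 40.7 and 48.4 CPM with DB2115, against 27.2 and 25.2 CPM in VEH. The groups did not overlap, although the treated libraries differed from each other more than the vehicle ones did. Of all genes tested, 81.3% had groups that did not overlap. The log2 fold change was 0.77 (SE 0.09, edgeR adjusted p = 8.22e-06), with means of 44.5 ± 5.47 CPM with DB2115 and 26.2 ± 1.39 CPM in VEH (SD, n = 2 each). CD300A was the most abundant CD300 transcript in both groups and lies on chromosome 17, 74466399 to 74484796, plus strand.

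CD300LF, the other ITIM-bearing receptor of the set, which binds sphingolipids, was the member that fell. It had 9.45 and 8.79 CPM with DB2115, against 13.7 and 13.0 CPM in VEH, and both treated libraries lay below both vehicle libraries. The log2 fold change was -0.55 (SE 0.11, edgeR adjusted p = 0.000572), 0.683-fold. CD300LF lies at 74694311 to 74712978 on the minus strand, wholly within the body of RAB37, which is transcribed from the plus strand and encodes a small GTPase of secretory granules. The exons of the 2 genes share no base. RAB37 rose to 39.2 and 36.9 CPM with DB2115, against 4.78 and 5.16 CPM in VEH (log2 fold change 2.94, edgeR adjusted p = 6.73e-11), the opposite direction to CD300LF. The sources used here do not give the strandedness of the counting, so reads from unspliced RAB37 transcripts over CD300LF exons cannot be told apart from CD300LF reads.

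CD300C, the activating partner of CD300A in this family, had 10.7 and 10.3 CPM with DB2115, against 6.83 and 5.25 CPM in VEH. The log2 fold change was 0.80 (SE 0.14, edgeR adjusted p = 0.000252), against 0.77 for CD300A. Their level ratio per kilobase was 2.14 and 2.63 with DB2115, against 2.24 and 2.70 in VEH, and the libraries of the groups interleaved (log2 difference -0.05, exact two-sided permutation p = 0.667). CD300A and CD300C are close relatives, yet only 25 of the 1468 runs of 50 bases in CD300C transcripts also occurred in CD300A transcripts. No other pair of members shared any. Reads of such length that fall in the shared stretch cannot be assigned to 1 gene.

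Relative to CD300LF, both CD300A and CD300C were higher with DB2115. Per kilobase, CD300A stood at 3.44 and 4.40 times the CD300LF level with DB2115, against 1.58 and 1.55 times in VEH. CD300C stood at 1.61 and 1.68 times with DB2115, against 0.708 and 0.576 times in VEH, so that CD300C stood above CD300LF in the treated libraries and below it in the vehicle libraries. Each shift had the same exact two-sided permutation p = 0.333.

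CD300LB, which signals through DAP12, was the scarcest member detected. It had 61 and 91 counts with DB2115, or 1.49 and 2.20 CPM, against 9 and 24 counts in VEH, or 0.256 and 0.581 CPM. The groups did not overlap, but the libraries within each group were far apart, and the vehicle counts lay near the minimum of 10 used in the filter. The log2 fold change was 2.10 (SE 0.41, edgeR adjusted p = 0.000565), and the ratio of summed counts had an exact 95% counting interval of 2.92 to 6.43, which covers counting error only. Leaving out VEH library B gave 2.81 (adjusted p = 0.0116) and leaving out VEH library A gave 1.65 (adjusted p = 0.00341). CD300E and CD300LD, activating receptors of monocytes and other myeloid cells, were at 0 counts in all 4 libraries, which allows up to 3 counts or between 0.0724 and 0.0854 CPM in a library.

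**Figure D2:**
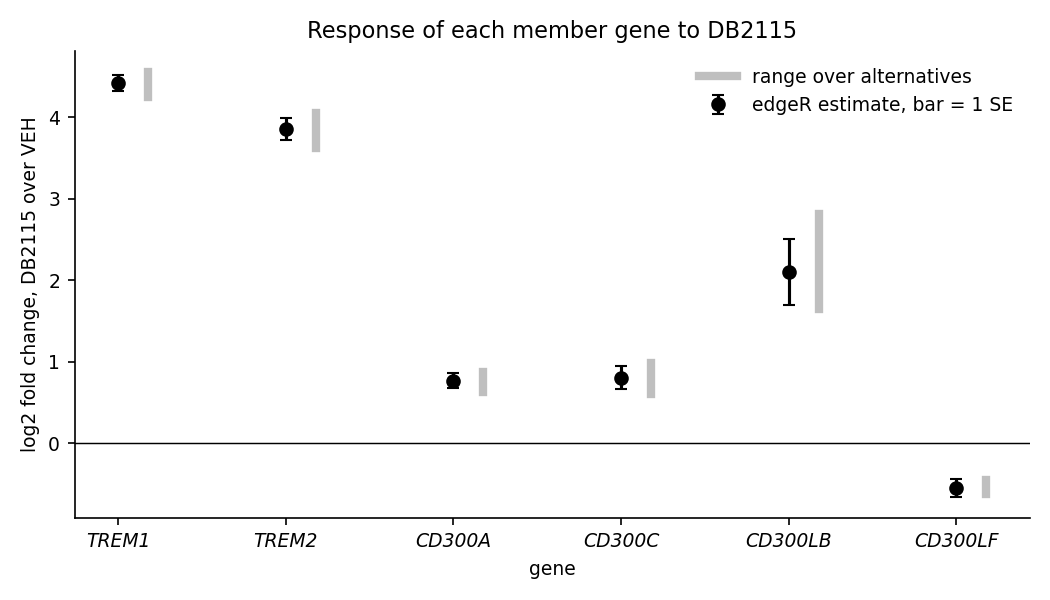
Log2 fold change of DB2115 over VEH for the 6 member genes tested, as the edgeR estimate with a bar of 1 SE (black) and the range over the alternative analyses (grey). TREM1 (4.42) and TREM2 (3.86) stand above the CD300 members, and only CD300LF (-0.55) lies below 0.

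Per length, the set changed its order. With DB2115 the level per kilobase of exon was 24.1 CPM for TREM2, 16.5 for CD300A, 15.4 for TREM1, 6.92 for CD300C, 4.22 for CD300LF and 0.678 for CD300LB, as means of 2 libraries. In VEH it was 9.70 CPM per kilobase for CD300A, 6.19 for CD300LF, 3.98 for CD300C, 1.68 for TREM2, 0.722 for TREM1 and 0.154 for CD300LB. CD300A at 15.04 and 17.9 and TREM1 at 15.6 and 15.2 CPM per kilobase overlapped in the DB2115 libraries, while the other neighbours in the DB2115 order did not. None of the neighbours in the vehicle order overlapped between libraries. The place of TREM1 depends on the length used, because its annotated exons add up to 4329 bases and its longest transcript to 2048 bases. With the longest transcripts as lengths TREM1 led in DB2115, at 32.5 CPM per kilobase, ahead of TREM2 at 25.3 and CD300A at 24.0. On the exon length the 2 TREM genes made up 59.8% and 56.7% of the summed level of the 8 genes with DB2115, against 11.5% and 9.88% in VEH. The summed CD300 level was 27.0 and 29.6 CPM per kilobase with DB2115, against 21.0 and 19.0 in VEH.

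**Figure D3:**
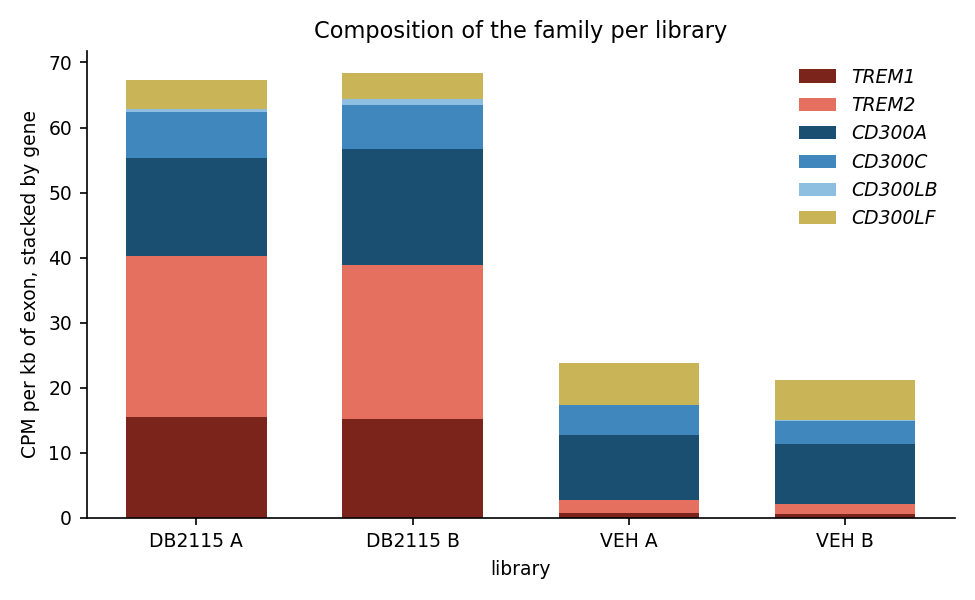
Stacked level of the member genes in each library, as CPM per kilobase of annotated exon, with the DB2115 libraries left of the VEH libraries. The TREM1 and TREM2 segments together reach 40.2 and 38.8 CPM per kilobase with DB2115 and 2.72 and 2.09 in VEH, while the CD300 segments differ far less.

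The TREM-like genes tested around TREM1 and TREM2 rose with DB2115. In the window from 250 kb before TREM2 to 250 kb after TREM1, 13 of 24 annotated genes were tested. Of the 11 that are not members 7 were called higher and 1 lower, where 32.7% of all genes tested were called higher and 31.3% lower. The 7 include ENSG00000218809, inside TREM1 on the same strand, so its reads cannot be told apart from those of unspliced TREM1 RNA. TREML2, a TREM-like receptor gene between the members, had 107.9 and 98.1 CPM with DB2115, against 13.7 and 13.4 CPM in VEH (log2 fold change 2.93, SE 0.08, edgeR adjusted p = 1.18e-11). TREML1, a receptor known from platelets, had 48 and 50 counts with DB2115 and 4 and 2 counts in VEH (log2 fold change 3.86, edgeR adjusted p = 3.84e-05). Its fold change was 4.53 without VEH library A and 3.33 without VEH library B, both called. The pseudogene TREML3P had 103 and 79 counts with DB2115 and 13 and 10 counts in VEH, a log2 fold change of 2.86. TREML4 had 7 and 4 counts with DB2115 and none in VEH, too few to test.

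Beyond the receptor genes the window was mixed. APOBEC2, of the cytidine deaminase family, had 51 and 53 counts with DB2115 and 5 and 4 counts in VEH (log2 fold change 3.39). NFYA, a subunit of the CCAAT-binding factor NF-Y, fell to 40.0 and 38.5 CPM with DB2115, against 81.5 and 83.0 CPM in VEH (log2 fold change -1.07, edgeR adjusted p = 1.5e-08). UNC5CL (0.96) and TSPO2 (2.08) were called higher by edgeR, but UNC5CL was not called without DB2115 library A (adjusted p = 0.082) or VEH library B (adjusted p = 0.1), and TSPO2 not without VEH library A (1.503, adjusted p = 0.092). The TSPO2 value was 3.20 without VEH library B. OARD1, ADCY10P1 and FOXP4-AS1 were tested and not called, but OARD1 was called lower without DB2115 library A (-0.23, adjusted p = 0.0396). With 1 CPM in 3 libraries required, 4 genes of the window, members included, were called higher in place of 9.

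Around the CD300 genes, 14 of 33 annotated genes in the corresponding window were tested. Of the 10 that are not members 8 were called higher and 1 lower, against the same shares over all genes. CD300H, an activating CD300 gene annotated as a polymorphic pseudogene, had 30 and 34 counts with DB2115 and none in VEH, at least 19.8-fold higher with the floor of 3 counts over the VEH group. GPRC5C, an orphan G-protein-coupled receptor gene next to CD300A, had 55.6 and 67.9 CPM with DB2115, against 11.4 and 11.1 CPM in VEH (log2 fold change 2.46, edgeR adjusted p = 4.2e-10). On the far side, the scaffold protein gene NHERF1 had 131.8 and 114 CPM with DB2115 and 68.1 and 64.5 CPM in VEH, and FDXR, the mitochondrial ferredoxin reductase, rose 2.05-fold. SLC9A3R1-AS1 (1.23), TMEM104 (0.73) and TTYH2 (0.49) were also called higher. NAT9 fell with a log2 fold change of -0.33, so that CD300LF and NAT9 were the genes of this window that were called lower, while GRIN2C was tested and not called.

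**Figure D4:**
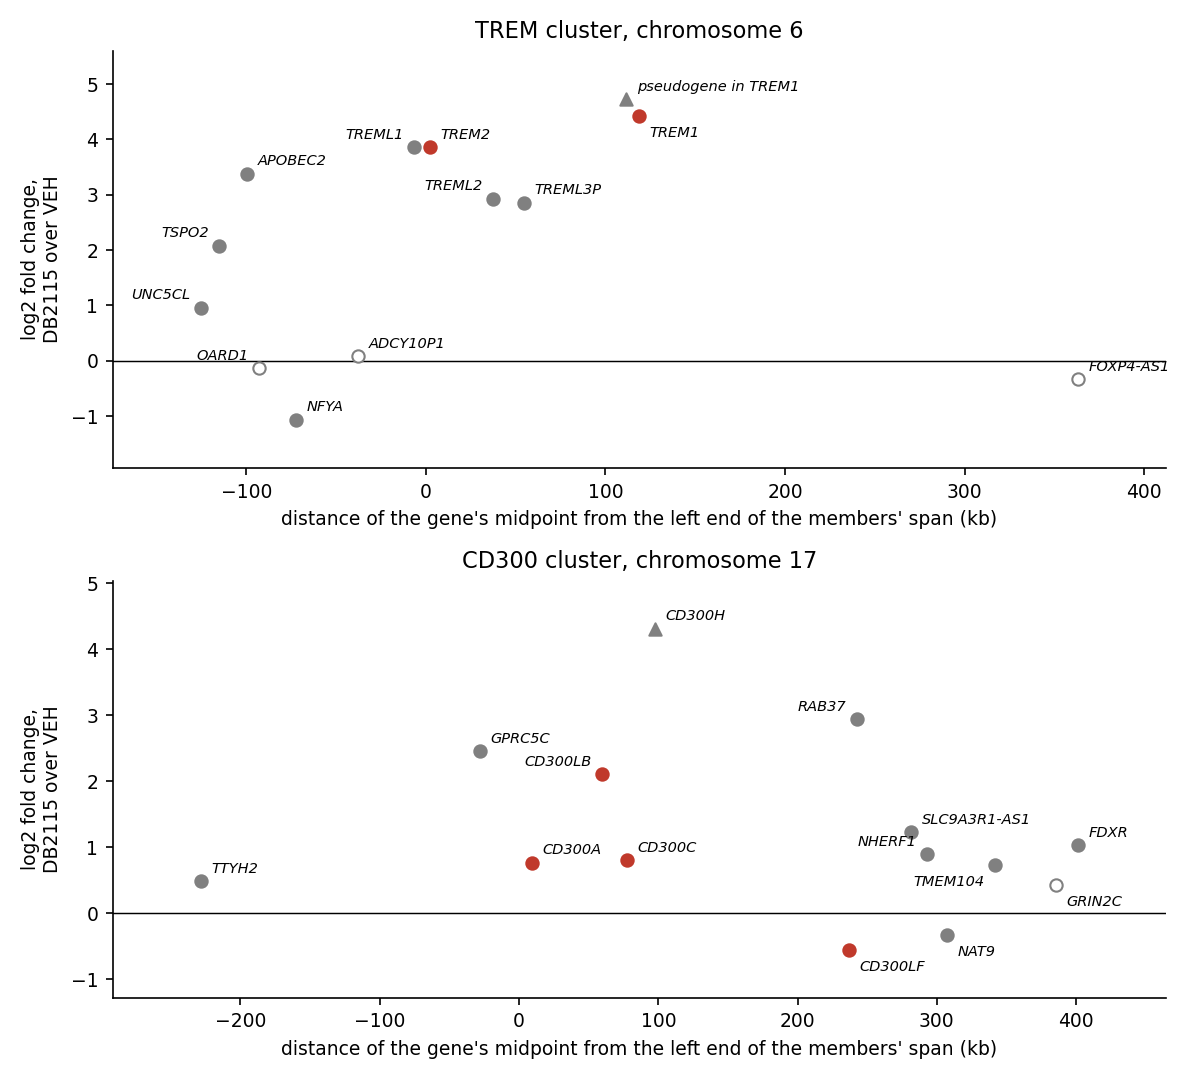
Log2 fold change of DB2115 over VEH for the tested genes of the windows on chromosomes 6 and 17, against the distance of each gene's midpoint from the left end of the members' span. Red points are members, grey points other genes, and open points were not called. Triangles are genes without VEH counts, drawn at their fold above the floor of 3 counts over the VEH group. The TREM and TREM-like genes lie between 2.86 and 4.42, while CD300LF lies at -0.55 beside RAB37 at 2.94.

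The adaptors through which these receptors signal all rose. TYROBP, which encodes DAP12, had 79.6 and 63.9 CPM with DB2115, against 11.7 and 10.8 CPM in VEH, a log2 fold change of 2.68 (SE 0.11, edgeR adjusted p = 3.28e-10). FCER1G, the Fc receptor gamma chain, had 33.6 and 31.7 CPM with DB2115 and 4.21 and 3.90 CPM in VEH (3.01, SE 0.10, edgeR adjusted p = 8.63e-11). HCST, which encodes DAP10, had 62.5 and 47.4 CPM with DB2115 and 26.5 and 23.8 CPM in VEH (1.13, edgeR adjusted p = 1.67e-06). The TREM genes and their adaptor TYROBP were thus all called higher in the same libraries, as were 32.7% of all genes tested.

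Of 50 genes listed as partners or relatives of these receptors 45 were tested, 28 were called higher and 6 lower, with a median log2 fold change of 0.46 against 0.03 over all genes tested, of which 32.7% were called higher and 31.3% lower. All 6 kinases were called higher. FGR, a Src-family kinase, had 58.6 and 58.4 CPM with DB2115 against 1.74 and 1.65 CPM in VEH (log2 fold change 5.11). LCK reached 5.20, but on 61 and 107 counts with DB2115 and 3 and 1 counts in VEH. FYN (0.93) and SYK (0.34) rose less. Of 15 proximal signalling genes 5 were called higher and 4 lower, close to the shares over all genes, with a median of -0.06. MALT1 (1.19), which carries signals to NF-kB, LCP2 (0.95), the scaffold SLP-76, and NFATC1 (0.61), a calcium-regulated transcription factor, rose. LAT2, a membrane adaptor of myeloid cells, fell to 104 and 96.4 CPM with DB2115, against 242.4 and 226.5 CPM in VEH (-1.23, edgeR adjusted p = 4.02e-09), and VAV2 (-0.63) and BTK (-0.50) fell too.

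Among 9 phosphatases and restraints, 6 were called higher by edgeR and none lower, where 32.7% of all genes tested were called higher and 31.3% lower. CSK, which inactivates Src-family kinases, moved to -0.20 without DB2115 library A, against -0.07 (edgeR adjusted p = 0.473) with all libraries. PTPN6, the phosphatase SHP-1 that binds inhibitory tails, had 420.3 and 384.6 CPM with DB2115 and 228.7 and 221.6 CPM in VEH (0.84, edgeR adjusted p = 1.11e-07). The docking proteins DOK2 (1.08) and DOK3 (1.02), of which DOK3 restrains DAP12 signalling in mouse macrophages, rose about as much.

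Of the 7 ligand and shedding genes 5 were tested, 2 were called higher and 1 lower, close to the 64.1% called in either direction over all genes. APOE, a lipid carrier that TREM2 binds, had 47 and 64 counts with DB2115 and 2 and 5 counts in VEH (log2 fold change 3.84, edgeR adjusted p = 3.16e-05), and 4.47 without VEH library B. HMGB1, a nuclear protein reported as a TREM1 ligand when released, fell to 757.8 and 719.1 CPM with DB2115, against 1476 and 1380 CPM in VEH (-0.95). ADAM17, a protease that sheds TREM2, was called higher (0.23, edgeR adjusted p = 0.0355), but not with DESeq2 (adjusted p = 0.0773), nor without DB2115 library B (0.09, adjusted p = 0.417), VEH library A (adjusted p = 0.109) or VEH library B (adjusted p = 0.316). PGLYRP1, another reported TREM1 ligand, had 28 and 21 counts with DB2115 and 19 and 23 counts in VEH and was not called.

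Among 10 related receptors 7 were tested, 6 called higher and 1 lower, where 32.7% of all genes tested were called higher and 31.3% lower. With 1 CPM in 3 libraries required, 2 of the list were called higher and 0 lower. Besides TREML1, TREML2 and CD300H, FCAMR, a receptor for IgA and IgM, had 51 and 36 counts with DB2115 and 1 and 2 counts in VEH, a ratio of 26.9 with an exact 95% counting interval of 8.91 to 133. PIGR, the polymeric immunoglobulin receptor, had 1 and 4 counts with DB2115 and 13 in each VEH library (log2 fold change -2.43, edgeR adjusted p = 0.0107). Its call was lost with DESeq2 (adjusted p = 0.065), without DB2115 library A (-1.80, adjusted p = 0.136) and without VEH library A (adjusted p = 0.0913) or B (adjusted p = 0.0831), and the value was -3.65 without DB2115 library B.

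**Figure D5:**
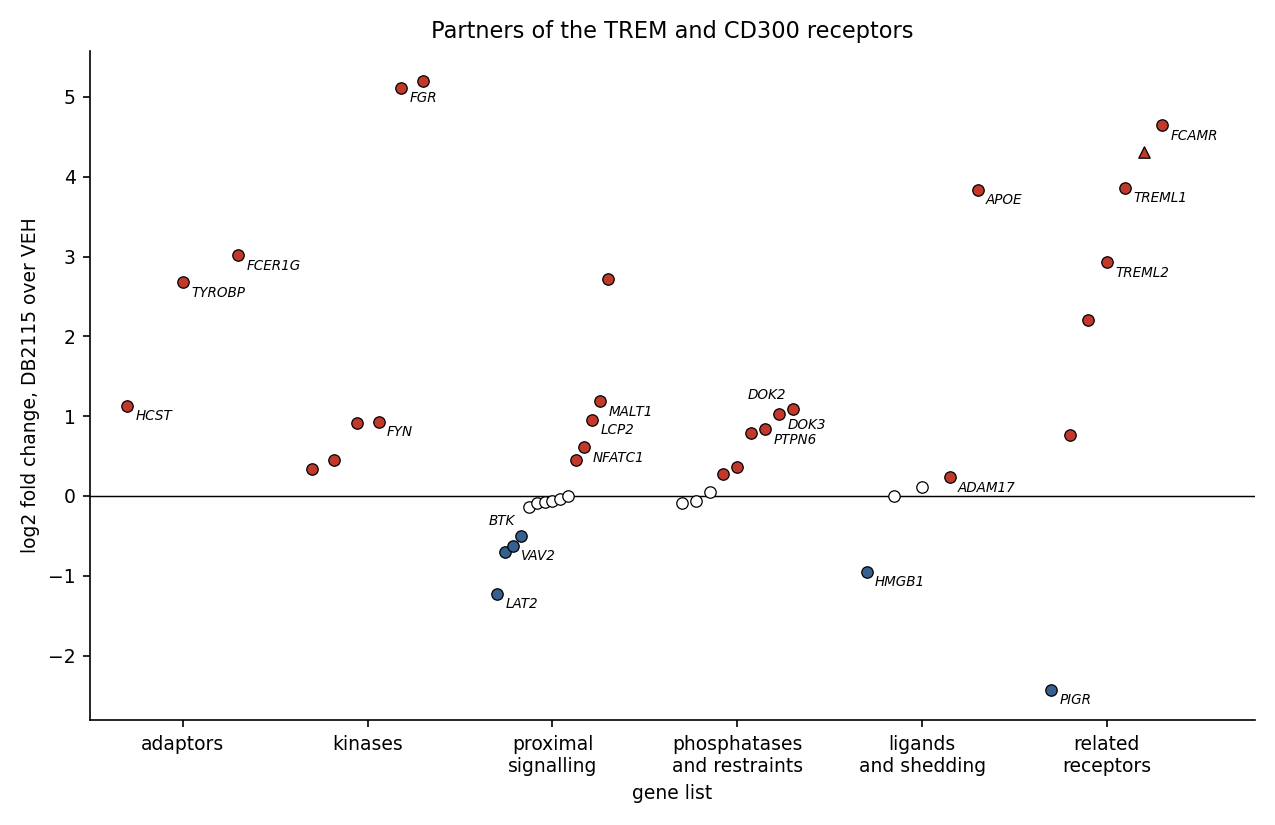
Log2 fold change of DB2115 over VEH for the tested genes of each partner list, 1 point per gene, red called higher, blue called lower and white not called. The triangle is CD300H, drawn at its fold above the floor of 3 counts over the VEH group. All 3 adaptors and all 6 kinases lie above 0, while proximal signalling genes lie on both sides.

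CD300A had the largest mean CPM of the called members over all 4 libraries, although TREM1 was higher with DB2115, and the genes closest to it across the 4 libraries were ZBTB34, LPIN1 and ACSS2, at Euclidean distances of 0.113, 0.154 and 0.175 in log2 CPM. With 4 libraries this describes a shared level and shift only. Total counts ran from 36547900 to 42446253 per library, and the common biological coefficient of variation was 6.33%. Of 34 markers of 12 other cell types 15 passed the filter, 11 of them called higher and 2 lower. Over all genes tested, 32.7% were called higher and 31.3% lower. Another 7 markers had no count in any library, among them PF4 of megakaryocytes and CPA3 of mast cells. GP9, also of the megakaryocyte list, was called higher, at 15.3 CPM with DB2115 against 2.71 CPM in VEH. So were COL1A1 (fibroblast, 38.7 against 5.55 CPM) and CD79A (B cell, 8.9 against 0.87 CPM), while NCAM1 (NK cell) fell to 70.8 CPM from 153.1 CPM. The part of these markers in the results was not tested.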

How the data were processed

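The authors deposited raw read counts per gene for MOLM-13 RNA-seq libraries, not normalised, in 6 columns. Per the submitters' processing notes, STAR, FastQC, DESeq2 and build hg38 were used, with no versions listed. The sources used here do not give the counting tool, annotation or strandedness. Column V of each group matched A plus B exactly in 86.3% (DB2115) and 85.6% (VEH) of genes with counts and was left out, leaving 2 libraries per group. Identifiers were matched without version to symbols and to GENCODE 29.

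Counts were filtered with filterByExpr (minimum count 10, minimum total 15), scaled by TMM and compared with edgeR 4.0.16 (glmQLFit, glmQLFTest) in R 4.3.3, treatment as the only term, with Benjamini-Hochberg adjustment over 17219 genes. Fold changes are DB2115 over VEH. Standard errors, derived from each fold change and F statistic, are too small for large changes with few counts. TMM takes most genes as unchanged, which may not hold here, where 64.1% of genes tested were called. Levels are therefore relative to the RNA sequenced. Ratios of member levels were compared with exact permutations (scipy 1.17.1). The edgeR step was first tested on simulated data.

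Members, partner lists and markers were chosen with earlier results of these data known. Named partners were up to 3 per list and direction with the smallest adjusted p. SYK, LCK, PGLYRP1, TREML4, CSK and the markers named were picked as examples after their values were seen. A gene that the rule for partners names is not reported here. Protein sequences named in the plan were not analysed here. Alternatives covered scaling, filters, DESeq2 1.42.0, limma-voom (limma 3.58.1), each library left out, a block on the column letter, all 6 columns, mitochondrial genes left out and another gene length.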

Additional observations from a re-analysis of the deposited data

How the results depend on the processing

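Each of the 6 member genes tested kept its direction and its call under all alternatives that gave a value, 14 for each gene and 13 for CD300LB, which did not pass 1 CPM in 3 libraries. The log2 fold changes ran from 4.25 to 4.56 for TREM1, 3.63 to 4.06 for TREM2, 1.65 to 2.81 for CD300LB, 0.62 to 0.87 for CD300A, 0.60 to 0.99 for CD300C and -0.62 to -0.46 for CD300LF. Leaving out each library in turn leaves 1 group with a lone library, assumed to vary like the other group. With a replicate block on the column letter, TREM1 stood at 4.42, TREM2 at 3.86, CD300LB at 2.16 and CD300LF at -0.55, and no member call changed; the labels do not say that a letter marks a shared culture, and A minus B differences correlated at 0.115 between the groups. With all 6 columns, which counts each sum as a library, 10 partner genes were called lower in place of 6, and 3 genes of the chromosome 6 window in place of 1. That window had 1 to 2 genes called lower when single libraries were left out, with 2 without DB2115 library A, and 4 in place of 9 called higher under the filter of 1 CPM in 3 libraries, which drops genes scarce in 1 group. Upper-quartile factors moved the median of all genes by 0.095. Depth limits CD300E, CD300LD, TREML4 and PIGR, which had 0 to 26 counts in a group.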
